A study of Rattus norvegicus with 22 samples.

Results

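The names examined here are the miR-338 and miR-219 microRNAs, 2 small families that are enriched in myelin-forming oligodendrocytes. They were chosen by number alone, as every name in the deposited tables that carries exactly either of those numbers, with no use of measured values. This gave 4 of 468 names. They are rno-miR-338-3p, rno-miR-338-5p, rno-miR-219-2-3p and rno-miR-219-5p, written below without the rat prefix, and each was read in all 22 libraries.

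The libraries hold small RNA from the CA1 region of the hippocampus of male Long Evans rats, a pigmented outbred strain, aged 14 weeks. The 11 CPF rats had been injected under the skin with 10 mg/kg of chlorpyrifos daily for 21 days. Chlorpyrifos is an organophosphate insecticide that blocks acetylcholinesterase, the enzyme that breaks down acetylcholine. The 11 control rats had received peanut oil vehicle in the same way. Every rat arrived at 9 weeks and was first dosed at 11 weeks. Part of the rats underwent fear conditioning, but which libraries are theirs is not in the labels. The labels also give no animal identifiers, so p-values here measure the spread between libraries, part of which may be technical.

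A miRNA gene is transcribed as a longer RNA that folds into a hairpin, and processing of the hairpin can leave a mature strand from its left side (the 5p arm) and another from its right side (the 3p arm). Bases 2 to 8 of a mature strand, the seed, are the main determinant of which messenger RNAs it pairs with. In the central nervous system miR-219 and miR-338 accumulate as oligodendrocyte precursors leave the cell cycle and mature. Loss of these miRNAs impairs myelination in mice, and their known targets include transcription factors that hold precursors in the undifferentiated state.

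The mature strands are printed because their seeds show that these are 4 separate targeting sequences. They are from RefSeq (rat assembly GRCr8), 5′ to 3′, with the seed in capitals. RefSeq calls the miR-219 strands miR-219a-2-3p and miR-219a-5p.
miR-338-3p: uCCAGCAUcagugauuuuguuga
miR-338-5p: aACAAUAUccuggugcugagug
miR-219-2-3p: aGAAUUGUggcuggacaucugu
miR-219-5p: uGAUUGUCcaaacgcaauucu
All 4 seeds differ, and among the 693 rat mature forms in RefSeq, 0 others carry any of them.

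The hairpins show which arms come from a single precursor. In each, the arms are in capitals.
Mir338: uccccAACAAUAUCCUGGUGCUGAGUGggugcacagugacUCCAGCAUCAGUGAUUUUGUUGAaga
Mir219-2: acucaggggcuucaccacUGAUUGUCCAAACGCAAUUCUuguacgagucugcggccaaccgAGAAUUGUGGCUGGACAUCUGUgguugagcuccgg
Mir219a1: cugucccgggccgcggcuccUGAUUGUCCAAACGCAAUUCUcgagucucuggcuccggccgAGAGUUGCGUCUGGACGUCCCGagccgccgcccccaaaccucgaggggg
Mir338 gives both miR-338 strands. The miR-219-5p strand is the same in Mir219-2 and Mir219a1, so its reads cannot be assigned to either gene. miR-219-2-3p belongs to Mir219-2. The 3p arm of Mir219a1 matches it at 15 of 22 positions and was not analysed here. In RefSeq, Mir338 lies on chromosome 10 and overlaps Aatk, a kinase gene, on the same strand. Mir219-2 lies on chromosome 3 and overlaps a long non-coding RNA gene of its own strand (LOC120101515) and Cercam on the opposite strand. Mir219a1 lies on chromosome 20 and overlaps no gene of the table. No positions are given, since the tables were made on another build (rn4, per the submitters' processing notes).

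Values are reads per 1000000 miRNA reads of a library (RPM). The steps between low values gave a depth of 47844 to 94980 miRNA reads per library (control 70880 ± 6709 and CPF 74134 ± 12857, SD, n = 11 each). A single read was thus worth 10.5 to 20.9 RPM, and a floor of 3 reads 31.6 to 62.7 RPM. The floor covers counting error only, because reads without molecular identifiers are not independent molecules. All 4 names were above it in every library.

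miR-338-3p was among the most abundant miRNAs of these libraries. In control libraries its lowest, median and highest levels were 43268, 52110 and 86540 RPM, and in CPF libraries 31180, 48214 and 77616 RPM. It ranked 5th of all names by mean level, and between 3rd and 8th in single libraries, from 1992 to 7372 reads. Its nearest neighbour on either side was not separated from it beyond the spread. It was above miR-29a-3p in 9 of 22 libraries and above miR-9a-5p, a neural progenitor miRNA, in 9 of 22. miR-30d-5p stood above it in all but 2 libraries, and miR-3586-3p below it in 20 of 22.

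miR-338-5p, the other arm of the same hairpin, was at 1928, 2222 and 3068 RPM (lowest, median, highest) in control libraries. In CPF libraries it was at 1364, 2107 and 2789 RPM. It ranked 38th by mean level, beside miR-138-5p (2287 ± 323 RPM in control and 2295 ± 190 in CPF, SD, n = 11 each), which it exceeded in 9 of 22 libraries. It exceeded miR-93-5p, next above, in 6 of 22, and miR-25-3p and miR-30a-5p, next below, in 19 and 17.

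The miR-219 strands were lower. miR-219-2-3p was at 638, 1050 and 1335 RPM in control libraries and at 629, 958 and 1373 RPM in CPF libraries, a mean of 71.5 and 71.7 reads. It ranked 57th, and exceeded its neighbours miR-125b-5p and miR-6331 in 11 of 22 libraries each. Its other neighbours, miR-132-3p and miR-212-5p, are the 2 names that rose with CPF, so the order differed by group. miR-132-3p averaged 698 RPM in control and 1292 RPM in CPF libraries, and miR-212-5p 820 and 1101 RPM, where miR-219-2-3p averaged 1018 and 962 RPM. miR-219-5p was at 185, 335 and 520 RPM in control libraries and at 166, 355 and 537 RPM in CPF libraries, a mean of 23.8 and 27 reads. It ranked 93rd, and exceeded its neighbours miR-652-3p, miR-204-5p, miR-24-2-5p and miR-3588 in 9 to 13 of 22 libraries. The tables list miR-219-5p on 2 rows, which were summed. The larger row held 133 to 516 RPM, and the smaller held 0 to 3 reads, was at 0 in 6 of 22 libraries and made up 4.75% of the sum. Which locus each row stands for is not given in the sources used here.

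The order of the 4 names was the same in every library. miR-338-3p exceeded miR-338-5p in 22 of 22 libraries (17.3 to 39.0 times), miR-338-5p exceeded miR-219-2-3p in 22 of 22 (1.49 to 3.15 times), and miR-219-2-3p exceeded miR-219-5p in 22 of 22 (1.5 to 5.24 times). These ratios compare read shares. Small RNA libraries ligate and amplify strands unequally, and what that contributes to the ratios was not tested.

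**Figure D1:**
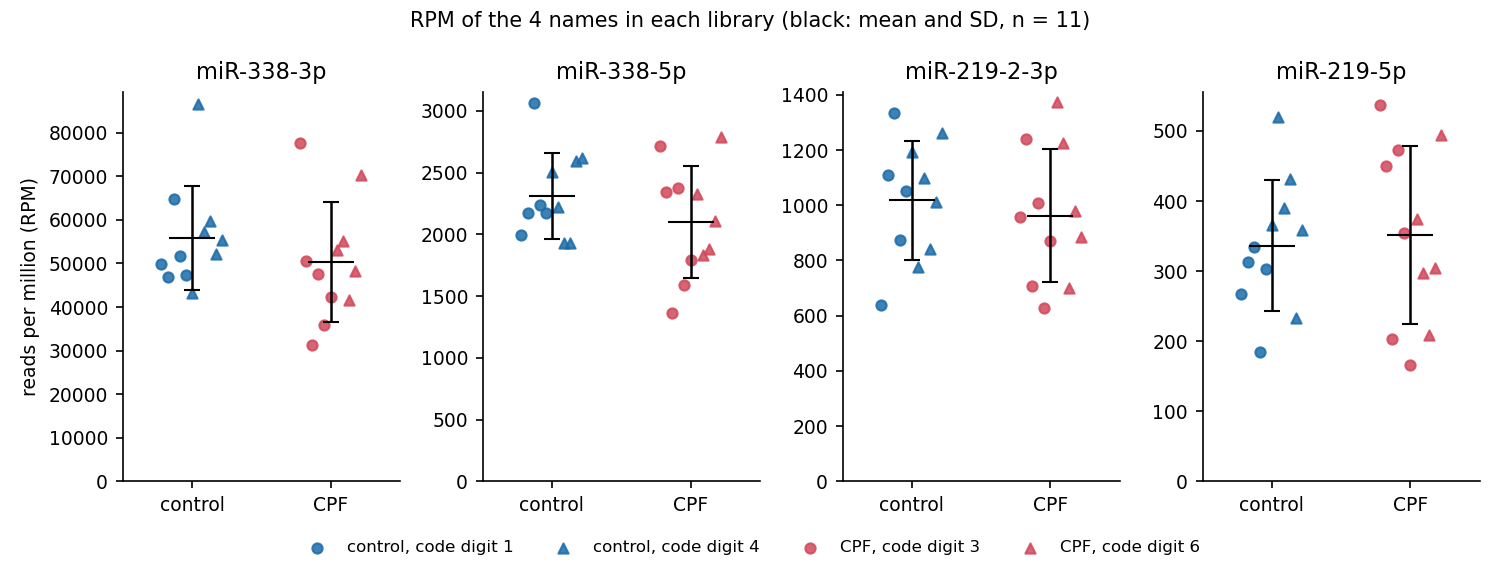
Level of each name in RPM (vertical axes from 0, a separate scale per panel) in the 11 control and 11 CPF libraries. Each point is a library, its shape the first digit of the library code, and black bars are the mean and SD. The groups overlap in every panel, and 4 CPF libraries lie below the lowest control library for miR-338-3p and 5 for miR-338-5p.

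The question of the CPF comparison is whether repeated exposure to the insecticide altered the levels of these miRNAs in CA1. No difference was detected for any of the 4 names. Mean miR-338-3p was 55889 ± 11908 RPM in control libraries and 50330 ± 13800 RPM with CPF (SD, n = 11 each). The log2 difference was -0.17 (SE 0.126, limma adjusted p = 0.806), with a 95% interval that runs from 0.742 to 1.06 as a fold. No CPF library exceeded the highest control library, 4 lay below the lowest (CPF replicates 3, 5, 6 and 9), and 7 of 11 lay below the control median.

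miR-338-5p had the same sign. It was 2313 ± 350 RPM in control libraries and 2101 ± 453 RPM with CPF (SD, n = 11 each), a log2 difference of -0.16 (SE 0.108, limma adjusted p = 0.806, fold interval 0.769 to 1.05). Of the 11 CPF libraries, 5 lay below the lowest control library, replicates 3, 5, 6 and 9 among them, with replicate 8.

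miR-219-2-3p was 1018 ± 214.3 RPM in control libraries and 962 ± 241 RPM with CPF (SD, n = 11 each), a log2 difference of -0.09 (SE 0.137, limma adjusted p = 0.954, fold interval 0.773 to 1.14). miR-219-5p was 337 ± 93.2 and 351 ± 127 RPM, a log2 difference of 0.02 (SE 0.200, limma adjusted p = 0.983, fold interval 0.762 to 1.34). For both miR-219 names a single CPF library lay above and a single one below the control range. The intervals of the 4 names leave room for changes of the widths given, and do not show that levels were equal.

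Of the 273 names tested, 2 passed an adjusted p of 0.05, both higher in CPF, which is 0.733%, and 0 were lower. At an unadjusted p under 0.05 there were 18. The filter of 10 RPM is below the value of a single read, so some tested names hold few reads. With a minimum of 50 RPM, 181 names were tested and 2 passed. The 4 miR-338 and miR-219 names thus gave 0 calls in either direction. Their median log2 difference was -0.12, and over all tested names the median was 0.02. Whether these medians differ was not tested, and names from a shared hairpin are not independent. edgeR on the recovered reads called 4 of 140 names (2.86%) and DESeq2 5 of 418 (1.2%), with none of these 4 names among them.

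Together the 4 names made up 5.96% ± 1.2 of RPM in control libraries and 5.37% ± 1.44 in CPF libraries (SD, n = 11 each). Single libraries ran from 4.73 to 9.01% in control and from 3.35 to 8.18% in CPF. The groups overlap, and a two-sided permutation test gave p = 0.321 (adjusted 0.843 over 6 ratios and shares). miR-338 alone was 5.82% ± 1.19 and 5.24% ± 1.42, and miR-219 alone 0.135% ± 0.023 and 0.131% ± 0.031 (SD, n = 11 each). In bulk tissue, fewer cells of a type and less RNA per cell cannot be told apart.

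The other names linked to the oligodendrocyte lineage, a list by miRNA number that also holds miRNAs of broad expression, had 19 tested members, of which 1 rose and 0 fell, where 2 of all 273 tested names rose (0.733%). Their median log2 difference was -0.07. The member that rose was miR-212-5p, made with miR-132 from a hairpin cluster that neuronal activity induces, from 820 ± 106.3 to 1101 ± 129.01 RPM (SD, n = 11 each, log2 difference 0.43, SE 0.0864, limma adjusted p = 0.00456). Its other arm, miR-212-3p, is also in the list and did not pass, near the 3-read floor. That arm was 28.9 ± 18.8 and 42.9 ± 42.9 RPM (control and CPF, SD, n = 11 each, log2 difference -0.28, SE 0.882, limma adjusted p = 0.972). The leading members by level did not pass. miR-9a-5p was 52435 ± 7700 and 50852 ± 7160 RPM, and miR-9a-3p 3261 ± 281 and 3011 ± 511 RPM (control and CPF, SD, n = 11 each). The list's summed share was 5.28 to 7.28% in control and 4.93 to 7.25% in CPF libraries, most of it miR-9a-5p by the group means.

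Markers of other cells that a CA1 dissection could hold were summed in the same way. Of 12 tested neuronal names 0 passed (median log2 difference 0.05), and their share was 1.06 to 1.58% in control and 0.943 to 2.48% in CPF. By mean level over both groups they were led by miR-128 (7674 ± 1352 and 7558 ± 1626 RPM) and miR-129-2-3p (1551 ± 261 and 1608 ± 421 RPM, control and CPF, SD, n = 11 each). The neuronal name miR-153-3p was 486 ± 110 RPM in control and 1728 ± 4216 RPM in CPF (SD, n = 11 each). Its SD in CPF exceeded its mean, so the upper end of the CPF share may rest on few libraries. Of 6 vessel wall names 0 passed (median 0.04), at 22.2 to 28.4% and 22.2 to 31.4%, nearly all of it miR-143-3p. The second of these by level was miR-126a-3p, at 1575 ± 186 and 1600.3 ± 181 RPM (control and CPF, SD, n = 11 each). Microglial names made up 0.0150 to 0.0384% and 0.0153 to 0.0365% (0 of 4 passed, median -0.09, led by miR-146a-5p, which the oligodendrocyte lineage list also holds, and miR-142-5p). Choroid plexus and ependymal names ranged more widely in CPF, from 0.0635 to 0.801% against 0.0580 to 0.110% in control (0 of 7 passed, median 1.61, led by miR-1298 and miR-34c-5p). Some names of the oligodendrocyte lineage, neuronal, microglial and choroid plexus lists averaged near or below the 3-read floor in both groups. For such names a failure to pass does not show unchanged levels. The thalamic list had 1 tested member of 3, miR-182 (log2 difference 0.32, limma adjusted p = 0.806), and 1 name at 0 in every library. The part of these differences in the miR-338 and miR-219 values was not tested.

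The first digit of the library codes splits each group, 1 and 4 for control and 3 and 6 for CPF, and the labels do not explain it. miR-338-3p averaged 52113 ± 7359 RPM at digit 1 (SD, n = 5) and 59035 ± 14634 at digit 4 (SD, n = 6). In CPF it averaged 47521 ± 16396 at digit 3 (SD, n = 6) and 53701 ± 10679 at digit 6 (SD, n = 5). The differences within a group were no larger than the spread: the log2 difference of digit 4 less digit 1 was 0.16 and of digit 6 less digit 3 was 0.22 (limma adjusted p = 0.965 and 0.814). Single libraries moved these values: the first was 0.040 without control replicate 7 and the second 0.37 without CPF replicate 1 and 0.11 without CPF replicate 3. Of the 4 names, miR-219-5p had the widest gap in log2 difference, 280 ± 58.9 RPM at digit 1 (SD, n = 5) against 383 ± 94.1 at digit 4 (SD, n = 6), a log2 difference of 0.44 (SE 0.281, limma adjusted p = 0.947). In both digit contrasts 0 of 273 names passed, 0% of those tested, with 10 and 19 at an unadjusted p under 0.05. By edgeR 0 of 148 and 1 of 148 (0.676%) passed.

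Within pairs of digits, the CPF difference of miR-338-5p was below 0 in all 4 pairings, from -0.22 to -0.08 on the log2 scale. miR-338-3p ran from -0.34 (digit 3 against 4) to 0.03 (digit 6 against 1), and miR-219-2-3p from -0.21 to 0.05. miR-219-5p was above 0 against digit 1 (0.28 and 0.23) and below 0 against digit 4 (-0.21 and -0.16). A test of the difference between the pairings passed for none of the 4 names. For miR-219-5p, the pairing of 6 with 4 less that of 3 with 1 was -0.48 (SE 0.398, limma adjusted p = 0.865), and no tested name passed it (0 of 273, with 11 at an unadjusted p under 0.05). The other pairing, 3 with 4 less 6 with 1, gave 0 of 273 too, with 24 unadjusted.

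**Figure D2:**
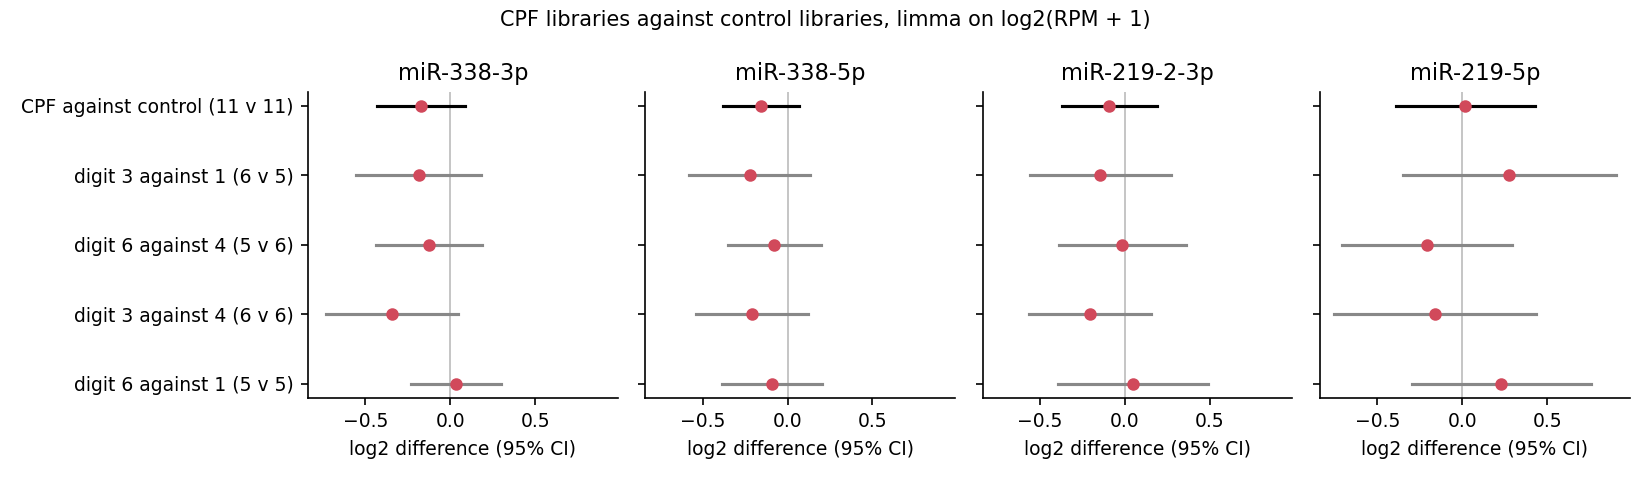
Log2 difference of CPF against control libraries (horizontal axes, limma on log2(RPM + 1)) for each name, over all libraries in the top row and within pairs of code digits below it, with 95% intervals as bars. Every interval spans 0, and miR-219-5p lies on either side of 0 by pairing.

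The ratio of arms does not depend on how a library is scaled. For miR-338 the 3p arm exceeded the 5p arm by a geometric mean of 24.0 times in control and 23.7 times in CPF libraries. Control libraries ran from 17.3 to 39.0 (median 21.8) and CPF libraries from 20.0 to 30.1 (median 22.9), so that the CPF values lay within the control range. The difference was -0.02 on the log2 scale (SE 0.114, n = 11 each, two-sided permutation p = 0.887). Control replicate 7 had the highest ratio of all 22, and the next highest was 31.0.

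For miR-219, the ratio of the 2-3p strand to the 5p strand had a geometric mean of 3.07 in control (1.5 to 4.75, median 3.47) and 2.85 in CPF libraries (1.77 to 5.24, median 3.22). The difference was -0.11 on the log2 scale (SE 0.223, n = 11 each, two-sided permutation p = 0.63, adjusted 0.869). Control replicate 7 had the lowest ratio here, and without it the difference was -0.21. Because miR-219-5p can come from a second hairpin, this is not a ratio of arms of a single precursor. Summed miR-338 exceeded summed miR-219 by 42.9 times in control and 39.7 times in CPF libraries, a log2 difference of -0.11 (two-sided permutation p = 0.422, adjusted 0.843), and -0.044 without control replicate 7.

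**Figure D3:**
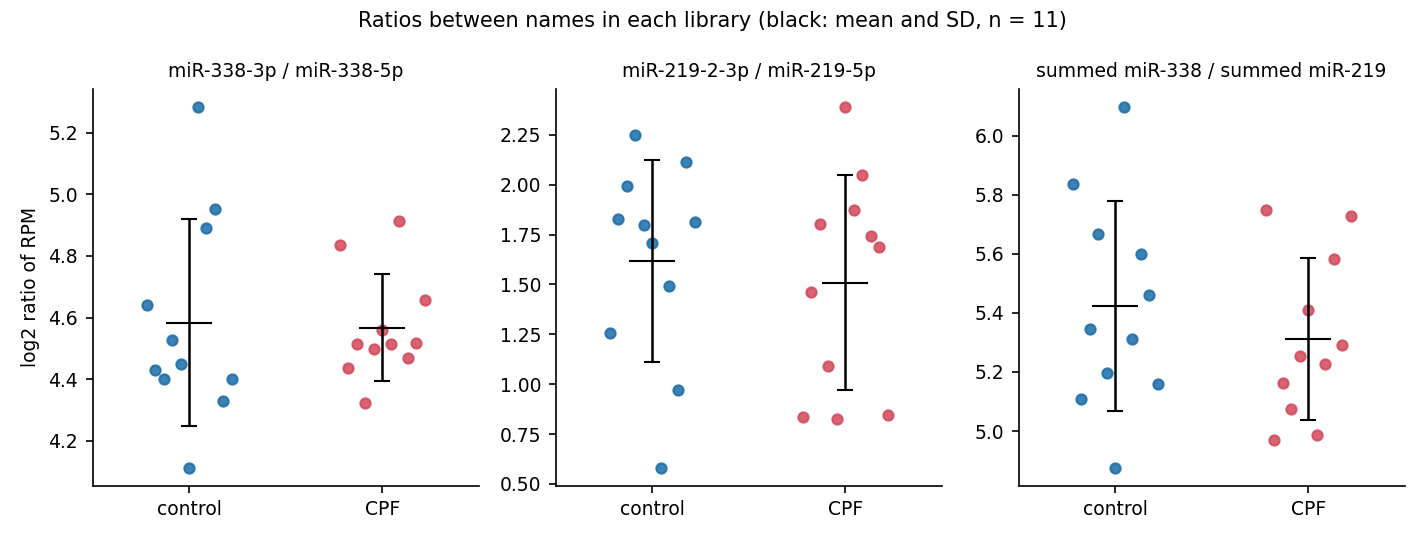
Log2 ratios within each library (vertical axes, each with its own scale and not starting at 0) for miR-338-3p to miR-338-5p, miR-219-2-3p to miR-219-5p and summed miR-338 to summed miR-219. Points are libraries, 11 per group, and black bars the mean and SD. The groups overlap in each panel, and control replicate 7 is the highest point of the first panel and the lowest of the second.

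Both genes have a miRNA gene on the opposite strand, and the deposited values show reads shared between the facing names. These partners are printed with their seeds in capitals, as they are nearly the reverse complement of miR-338-5p and of miR-219-2-3p.
miR-3065-3p: uCAGCACCaggauauuguugggga
miR-2964: aGAUGUCCagccacaauucucg
RefSeq places miR-3065-3p over 19 bases of miR-338-5p. miR-2964, whose mature strand RefSeq names miR-219b, covers 20 of the 22 bases of miR-219-2-3p. Their seeds differ from those of the strands they face. RefSeq also places miR-3065-5p over 20 bases of miR-338-3p, and miR-3065-5p was not analysed here.

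The number of reads of miR-338-5p was whole, within 0.02 reads, in 6 of 22 libraries, and so was that of miR-3065-3p. Their sum was whole in 22 of 22, at 94 to 277 reads. miR-3065-3p held 7.87% ± 1.42 of the sum in control libraries and 7.28% ± 2.22 with CPF (SD, n = 11 each). The same held for miR-219-2-3p and miR-2964, whose values were whole in 1 of 22 libraries and whose sum, 35 to 107 reads, was whole in 22. miR-2964 held 5.37% ± 3.36 of it in control and 6.05% ± 3.61 in CPF (SD, n = 11 each), between 1.22 and 14.3% in single libraries.

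miR-338-3p and miR-219-5p had whole reads in all 22 libraries. The values of miR-338-5p and miR-219-2-3p thus hold, in most libraries, fractions of reads that become whole with the facing name added. The authors' rule for such reads is not given in the sources used here. The facing names themselves did not pass. miR-3065-3p was 195 ± 33.1 and 166 ± 64.3 RPM (log2 difference -0.32, SE 0.199, limma adjusted p = 0.788), and miR-2964 was 56.2 ± 33.7 and 57.9 ± 30.8 RPM (control and CPF, SD, n = 11 each), near the 3-read floor.

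**Figure D4:**
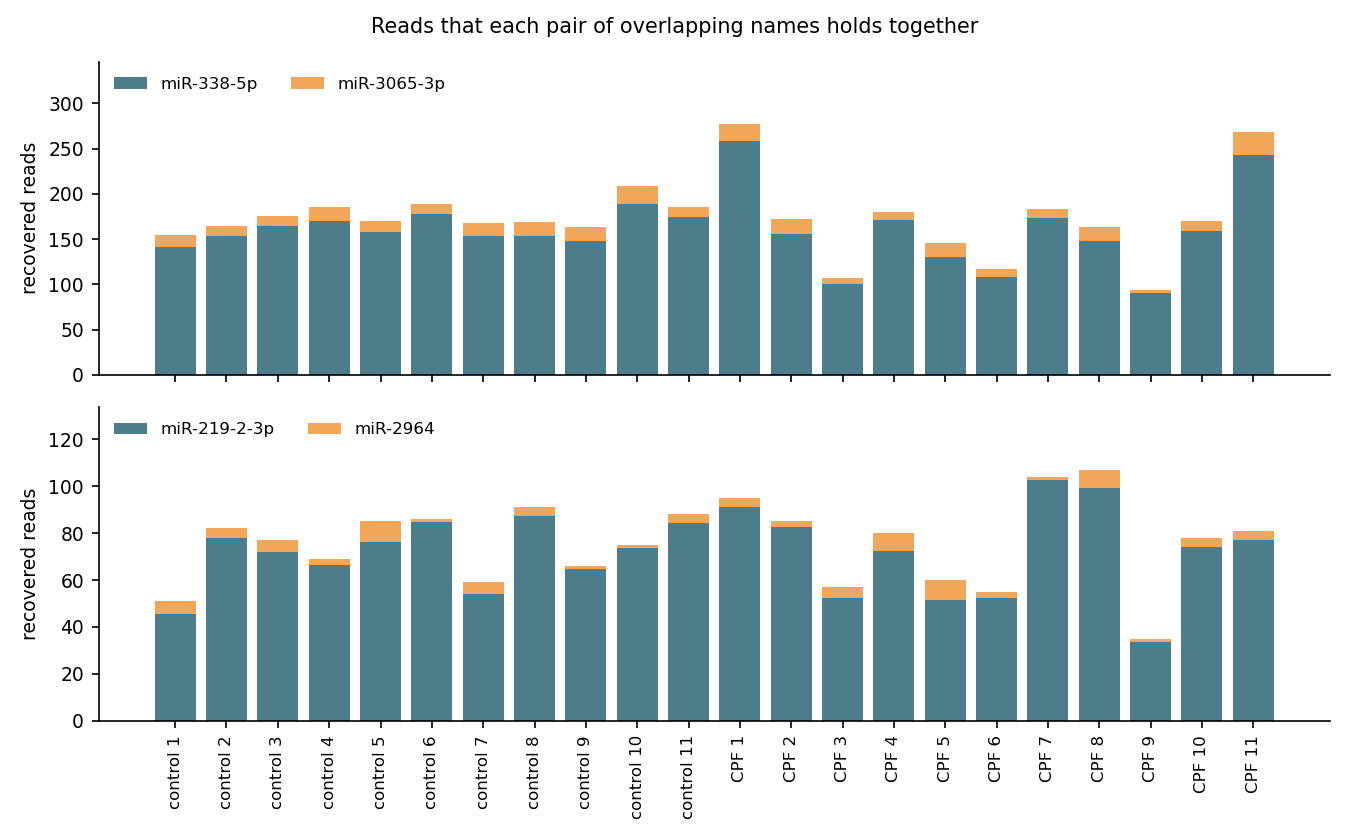
Recovered reads (vertical axes, from 0) of miR-338-5p with miR-3065-3p above and of miR-219-2-3p with miR-2964 below, stacked, in each of the 22 libraries. The height of each bar is a whole number of reads in every library, and the upper segment is at most 11.0% of it in the first pair and 14.3% in the second.

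The miR-338 levels varied between libraries more than those of most abundant names in the CPF group. The coefficient of variation of miR-338-3p, 21.3% in control and 27.4% in CPF, was 9th and 5th highest among 55 names of at least 1000 RPM, where the median was 14.7 and 13.0%. That of miR-338-5p, 15.1 and 21.6%, was 24th and 9th.

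The 2 arms of miR-338 moved together over the CPF libraries and not detectably over the control libraries. Over 11 CPF libraries Pearson's r was 0.90 (permutation p = 0.00025, adjusted 0.003) and Spearman's rho 0.77 (permutation p = 0.00723, adjusted 0.0434), and without replicates 1 and 3, the farthest from the median, r was 0.81. Over 11 control libraries r was 0.06 (permutation p = 0.852, adjusted 0.852) and rho 0.06 (adjusted 0.861), and without replicates 3 and 7 r was -0.35. Whether r differs between the groups was not tested.

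miR-338-5p and miR-219-5p gave a similar pattern. Over 11 CPF libraries r was 0.78 (permutation p = 0.00509, adjusted 0.0305) and rho 0.87 (permutation p = 0.00088, adjusted 0.0106), and r was 0.91 without replicates 3 and 5. Over 11 control libraries r was -0.13 (permutation p = 0.693, adjusted 0.832) and rho -0.24 (adjusted 0.648). CPF replicates 1 and 11 were the highest 2 CPF libraries for miR-338-3p, miR-338-5p and miR-219-5p, and were also the deepest, at 94980 and 87065 reads. The part of depth in these relations was not tested.

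These were 2 of 12 relations, 6 pairs in each group, that passed for both r and rho. The other pairs did not pass. For miR-338-3p with miR-219-5p, r was 0.70 over CPF libraries (permutation p = 0.0159, adjusted 0.0634) and 0.57 over control libraries (permutation p = 0.0727, adjusted 0.144). Over control libraries the highest r was that of miR-338-5p with miR-219-2-3p, 0.64 (permutation p = 0.0325, adjusted 0.0975), which fell to 0.40 without replicates 3 and 11. All such values share a library's total.

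**Figure D5:**
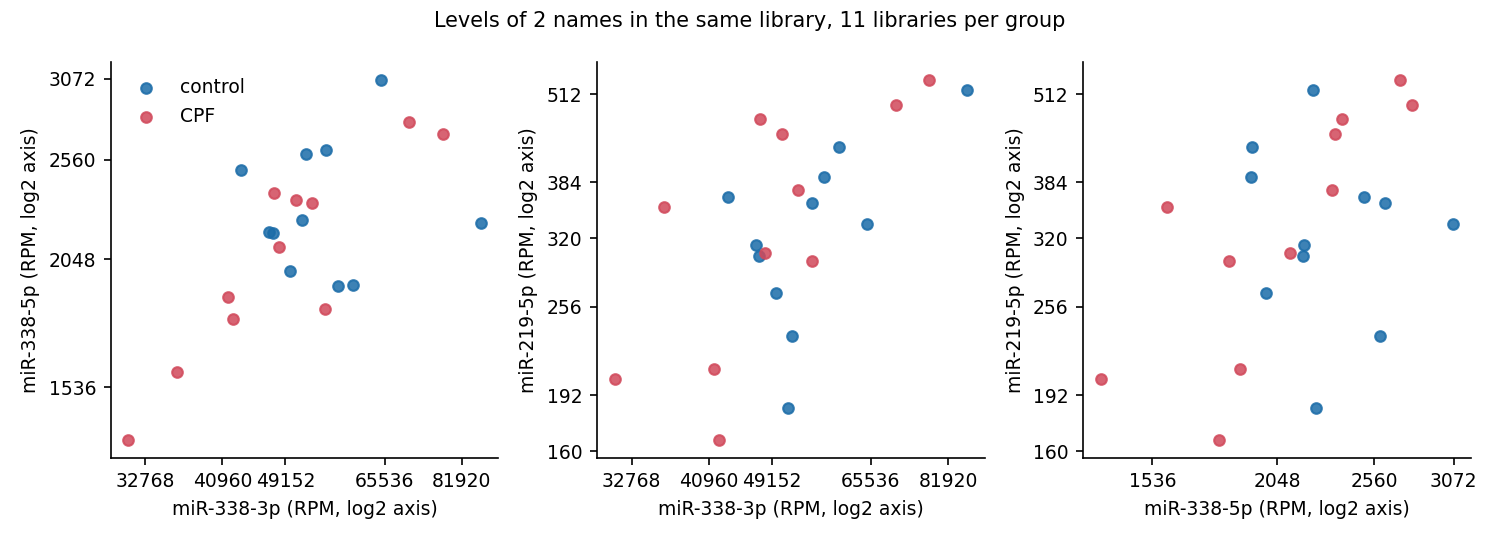
Levels of 2 names in the same library (both axes RPM on a log2 scale), with 11 control libraries in blue and 11 CPF libraries in red. In the left and right panels the CPF points rise together (r of 0.90 and 0.78) and the control points do not (r of 0.06 and -0.13).

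Names whose levels followed these most closely were ranked by Pearson's r over the 22 libraries, with group means removed, among 149 names of at least 100 RPM. These values are descriptions. The names nearest to miR-338-3p were miR-30e-5p (0.70), miR-24-3p (0.66), miR-219-5p (0.65), miR-93-5p (0.64) and its own 5p arm (0.63). miR-219-2-3p came 39th, at 0.25. Most opposite were miR-143-3p (-0.76), miR-30e-3p (-0.74) and miR-130a-3p (-0.73). By their names, miR-30e-5p and miR-30e-3p are arms of the same miRNA, yet they stood near opposite ends of this ranking. miR-143-3p is a vessel wall miRNA and the most abundant name, at 259666 ± 17535 RPM in control and 267848 ± 26205 RPM in CPF (SD, n = 11 each). RPM sum to a fixed total, so the levels of names in a library are not independent.

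miR-219-2-3p was most like miR-25-3p (0.65), miR-30a-3p (0.63), miR-21-5p (0.60), miR-338-5p (0.58) and let-7i-5p (0.48). For let-7i-5p, r was 0.87 over control libraries and 0.10 over CPF libraries. Its most opposite were miR-212-5p (-0.63), miR-434-5p (-0.57) and miR-136-3p (-0.55). The 2 strands of miR-219 had an r of 0.28. Of the 149 names, 84.6% had a RefSeq sequence, and over these the likeness to miR-338-3p had an r of 0.20 with GC content, and the likeness to miR-219-2-3p an r of -0.05.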

How the data were processed

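Per the file headers, the authors deposited RPM (reads per 1000000) per miRNA name for 22 TruSeq small RNA libraries (HiScanSQ). Tools in the submitters' processing notes are Bowtie, CASAVA 1.8.2, Partek 6.6 and cutadapt 1.2, with build rn4 and no roles. Strand handling and the division of reads that match several loci are not stated there. A full table has 484 rows and 468 names, and 13 names on 29 rows were summed. The table of control replicate 2 has 448 rows; the other 36 were treated as missing, none of them for miR-338 or miR-219.

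Reads were recovered from the RPM steps (93.4 to 97.4% of values whole within 0.02 reads). A limma 3.58.1 model with a trend (R 4.3.3) used log2(RPM + 1) of the 273 names that reached 10 RPM in 11 or more libraries, two-sided, with Benjamini-Hochberg adjustment over all of them. Fold changes are on that scale. Only the limma fit of CPF against control was tested on simulated data. edgeR 4.0.16 and DESeq2 1.42.0 on recovered reads, limma-voom, other filters, pseudocounts and scalings, code digits, a replicate block and left-out libraries were alternatives. Single values used two-sided permutation tests of 100000 resamples (scipy 1.17.1). Every pair of libraries differed by more than counting noise (chi-square per degree of freedom at least 2.42).

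Named are all miR-338 and miR-219 names, those facing them in the tables, names sharing a seed, the 2 nearest above and below each in mean level, the 5 most and 3 least alike, and the 2 leading members of each marker list with any that passed. miR-153-3p is named for its spread in CPF, and miR-212-3p as the other arm of a name that passed. The names and lists were chosen with earlier results of these data known, although the rule for the miR-338 and miR-219 names used their number alone. Sequences are RefSeq's (GRCr8), and each printed strand matched there.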

Additional observations from a re-analysis of the deposited data

Results flagged for a closer look

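Control replicate 3 stood apart from the other 4 control libraries of code digit 1 for both arms of miR-338. Its miR-338-3p was 64840 RPM, where the others ran from 46929 to 51603 RPM. Its miR-338-5p was 3068 RPM, where the others ran from 1996 to 2237 RPM. These were 2 of 28 sets of 4 to 10 libraries examined for a single distant library, and chance flags about 1 in 20. Both flags come from the same library and from arms of a single hairpin, so they are not independent. This library had 53748 reads, the lowest depth among the control libraries. The part of its depth in these levels was not tested.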

How the results depend on the processing

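No alternative gave a call for any of the 4 names. Names called among all tested were 4 with edgeR and TMM, 4 with edgeR and RLE, 5 with DESeq2, 3 with limma-voom and 1 in each of the 4 fits within a pair of code digits, against 2; for digit 6 against 3 edgeR called 1. The digit fits hold fewer libraries; otherwise the cause was not tested. The log2 difference of miR-219-5p changed sign with its 2 rows kept apart (-0.00111 for the larger row, -0.52 for the smaller), and for digits 6 against 4 (-0.21) and 3 against 4 (-0.16). For digits 6 against 1, miR-338-3p was 0.032 and miR-219-2-3p 0.047. The cause was not tested. Leaving out each library in turn gave 2 to 3 calls, and -0.24 to -0.11 for miR-338-3p, -0.20 to -0.10 for miR-338-5p, -0.16 to -0.03 for miR-219-2-3p and -0.064 to 0.115 for miR-219-5p, with 8 of 22 below 0. For digit 4 against 1 it gave 0 to 1 calls, 0.040 to 0.24 for miR-338-3p, -0.066 to 0.089 for miR-338-5p and -0.090 to 0.18 for miR-219-2-3p; for 6 against 3, 0 to 2 calls, 0.11 to 0.37 for miR-338-3p and -0.25 to 0.11 for miR-219-5p. The miR-338 arm ratio ran from -0.064 to 0.053, the miR-219 ratio from -0.21 to -0.040 (-0.25 without CPF replicates 7, 8 and 9), and the miR-338 to miR-219 ratio from -0.17 to -0.044.

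Same-numbered libraries did not deviate together (correlations of -0.09 to 0.19, 2 of 11 above 0.1). Each replicate number holds a control and a CPF library, so as a block it cannot change the log2 differences of these names, only their SE. They stayed at -0.17, -0.16, -0.09 and 0.02 for miR-338-3p, miR-338-5p, miR-219-2-3p and miR-219-5p. With the block the SE was 0.116, 0.113, 0.142 and 0.214 in that order, and 2 names were called. With facing names summed, chosen after seeing the data, miR-338-5p was -0.17 and miR-219-2-3p -0.08. Depth limits miR-219-5p most, at 10 to 51 reads per library.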

Other observations

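Among control libraries the ratios of strands moved in opposite directions, a relation picked after the values were seen. Over 11 control libraries the log2 ratio of miR-338-3p to miR-338-5p and that of miR-219-2-3p to miR-219-5p had a Pearson's r of -0.82 (permutation p = 0.00287, adjusted 0.0201 over 14 relations) and a Spearman's rho of -0.64 (permutation p = 0.0400, adjusted 0.134). Without control replicates 7 and 9, which have the 2 highest miR-338 ratios, r was -0.43 (permutation p = 0.248, n = 9), so the relation rests on those libraries. Over 11 CPF libraries r was 0.03 (permutation p = 0.936) and rho 0.21 (permutation p = 0.539). The difference between the groups was not tested.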
